A study of Columba livia with 12 samples.

Results

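In the breast muscle of the White-King pigeon (Columba livia), 12 of the 12918 genes in the deposited mRNA table were present in every library at 1 day of age and below 0.5 TPM in every library at 14 and 28 days. They were chosen by their own measured values: a gene belonged if every library at 1 day (1D) had at least 5 TPM and every library at 14 days (14D) and 28 days (28D) had less than 0.5 TPM. TPM is a share of all transcripts corrected for transcript length and scaled to a fixed total, so levels can be set side by side between genes. Since these values chose the genes, the fall from 1D is given as a description and no test is read from it. The 12 were 0.136% of the 8802 genes that had at least 5 TPM in every 1D library. The reverse pattern, below 0.5 TPM in every 1D library and at least 5 TPM in every later one, was found in 2 genes. The choice also left out 4 genes by name (MYBPC1, HBAD, THBS4 and PTN), which removed nothing, because none of the 4 met the thresholds.

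The labels describe White-King birds of 4 ages, 1D, 14D, 28D and adults of 2 years, with 3 libraries of total RNA per age, from breast muscle that was frozen after collection. The 9 libraries of 1D, 14D and 28D were used, and the adult libraries were not analysed here. All birds shared 1 breed and 1 tissue, and the labels name no genotype, sex or treatment. Whether the libraries of an age are different birds is not stated, so p-values measure the spread between libraries, which may be technical. TPM keeps no record of depth, so counting error is unknown, and a value of 0 is reported as listed at 0. Of 15 skeletal muscle fibre markers 10 were measured, and their summed level was 45149 to 56139 TPM at 1D, 69939 to 76470 TPM at 14D and 71616 to 74438 TPM at 28D, so the defining markers of the labelled tissue were abundant at every age.

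Hatching muscle still holds growing nerve, connective tissue and young fibres, and several families of signals known from embryonic development act there. Neuregulins bind ErbB receptors and are known, from work in mice, for the survival of Schwann cells, the glia that wrap motor nerves. The GDNF family of growth factors binds GFRA co-receptors and signals through the kinase RET in motor neurons and glia. Retinoic acid, made from vitamin A, is held in the cytosol by binding proteins and acts on nuclear receptors. HMGA2 is an architectural chromatin protein of dividing embryonic cells. In bulk tissue, fewer cells of a type and less RNA per cell cannot be told apart.

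All of the 12 genes but CXCL14 had a 1D mean below the median of the genes present in every 1D library. Their 1D means ran from 6.01 to 37.2 TPM, with a median of 9.86 TPM, against a median of 24.9 TPM over the 8802 genes of at least 5 TPM in every 1D library. Together they summed to 150 TPM, 174 TPM and 136 TPM in 1D libraries 1, 2 and 3. The sums were 2.15, 2.07 and 1.73 TPM in the 14D libraries and 1.48, 1.03 and 1.51 TPM in the 28D libraries. Of the 12, 9 carry a gene symbol, 1 carries a placeholder symbol and 2 identifiers were not matched in the reference gene table.

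**Figure D1:**
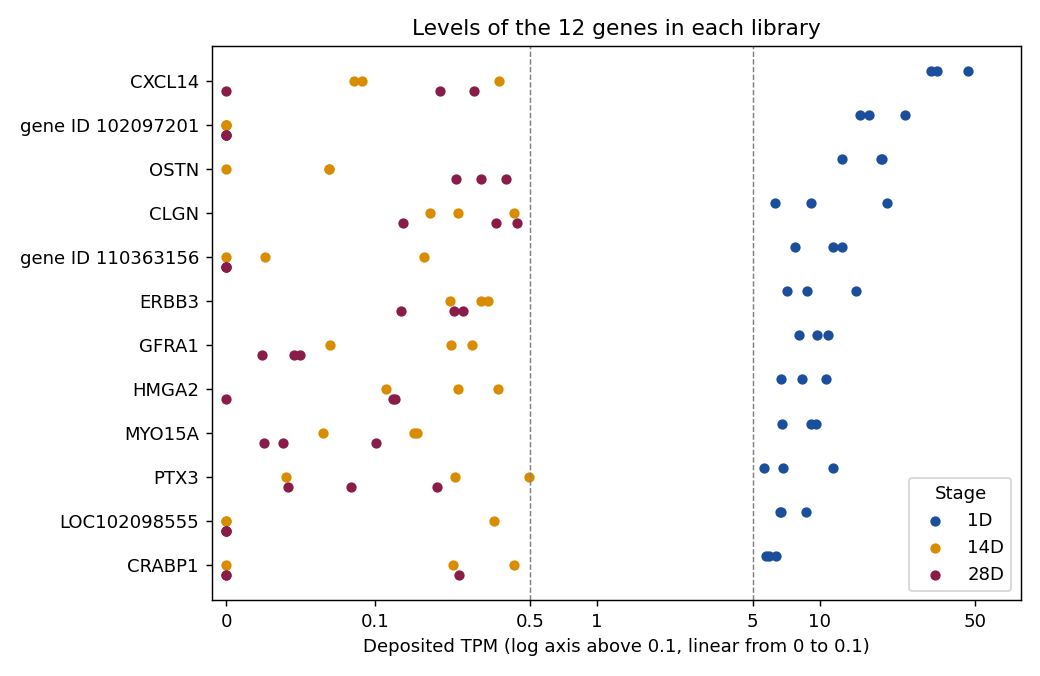
Deposited TPM of the 12 genes in each of 9 libraries (log axis above 0.1 TPM, linear below); each point is 1 library, coloured by stage, and dashed lines mark the thresholds of 0.5 and 5 TPM that chose the genes. CXCL14 stands highest at 1D, and gene ID 102097201 lies at 0 in all 6 later libraries.

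Among the secreted proteins, CXCL14, a chemokine of the CXC group, was the most abundant of the 12 at 1D. It had 46.4, 33.5 and 31.7 TPM in 1D libraries 1 to 3. It had 0.0912, 0.361 and 0.0863 TPM at 14D and 0.278, 0 and 0.197 TPM at 28D. The mean at 14D was 0.482% of that at 1D, and the 14D and 28D libraries overlapped. OSTN encodes osteocrin, also called musclin, a peptide that muscle and bone secrete in mice and that binds the natriuretic peptide clearance receptor NPR3. It had 18.8, 19.1 and 12.7 TPM at 1D. It had 0.0693, 0.069 and 0 TPM at 14D and 0.3, 0.389 and 0.231 TPM at 28D. All 28D libraries lay above all 14D libraries, at levels of at most 0.389 TPM, and this difference was not tested. The share of all genes with such a separation was not counted. PTX3, a long pentraxin of innate defence and of the hyaluronan matrix, had 5.6, 11.5 and 6.82 TPM at 1D. It had 0.496, 0.0405 and 0.231 TPM at 14D and 0.0417, 0.192 and 0.0839 TPM at 28D. Its 1D library 1 had the lowest 1D value of any of the 12 genes and its 14D library 1 the highest value after 1D, so it lay nearest to both thresholds.

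Both receptors among the 12 serve nerve and glia in other vertebrates. ERBB3, a neuregulin receptor that signals with ERBB2 and is needed for Schwann cells in mice, had 7.15, 14.5 and 8.74 TPM in the 1D libraries. It had 0.323, 0.218 and 0.301 TPM at 14D and 0.251, 0.226 and 0.132 TPM at 28D. The gene was detected in all 6 later libraries, and its 14D and 28D values overlapped. GFRA1, the co-receptor for the growth factor GDNF, had 8.05, 9.72 and 11 TPM at 1D. It had 0.0695, 0.274 and 0.219 TPM at 14D and 0.0237, 0.0458 and 0.0498 TPM at 28D. Every 28D library lay below every 14D library, and the means were 1.96% and 0.415% of the 1D mean at 14D and 28D. This difference between 14D and 28D was not tested, and the share of all genes with such a separation was not counted.

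The intracellular proteins were a chromatin factor, a retinoid-binding protein, a chaperone and a motor. HMGA2 had 10.7, 6.69 and 8.3 TPM at 1D. It had 0.359, 0.236 and 0.112 TPM at 14D and 0.121, 0 and 0.123 TPM at 28D. Its 28D mean was 0.952% of its 1D mean, and the later stages overlapped. CRABP1, which binds retinoic acid in the cytosol, was the scarcest of the 12 and the most even at 1D, with 6.4, 5.74 and 5.9 TPM. It had 0, 0.225 and 0.423 TPM at 14D and 0, 0 and 0.239 TPM at 28D, so that 3 of the 6 later libraries were listed at 0. CLGN, calmegin, an endoplasmic reticulum chaperone related to calnexin and best known from the mouse testis, was the least even at 1D, with 9.11, 20 and 6.29 TPM. It had 0.424, 0.236 and 0.177 TPM at 14D and 0.437, 0.135 and 0.352 TPM at 28D, and these stages overlapped. MYO15A, an unconventional myosin known for the stereocilia of the inner ear in mice and humans, had 6.78, 9.62 and 9.15 TPM at 1D. It had 0.151, 0.0651 and 0.155 TPM at 14D and 0.0252, 0.0381 and 0.102 TPM at 28D, with detection in all 6 libraries.

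The 3 genes without a name showed the most zeros. Gene ID 102097201 had 16.7, 24.1 and 15.1 TPM at 1D, the second highest mean of the 12, and was listed at 0 in all 6 later libraries. It was the only one of the 12 at 0 throughout. Gene ID 110363156 had 7.79, 12.7 and 11.5 TPM at 1D, then 0.167, 0 and 0.0262 TPM at 14D, and was at 0 in all 28D libraries. LOC102098555 had 6.62, 6.71 and 8.72 TPM at 1D and was at 0 in 5 of 6 later libraries, with 0.342 TPM in 14D library 2. Near-identical copies of these genes, which could share reads, were not looked for.

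Across the 12 genes and 6 later libraries, 21 of 72 values were listed at 0, of which 8 of 36 were at 14D and 13 of 36 at 28D. The median value was 0.153 TPM at 14D and 0.0478 TPM at 28D. The 28D mean lay below the 14D mean in 9 genes and above it in 2, OSTN and CLGN, with gene ID 102097201 at 0 in both. Because the rule held all these values below 0.5 TPM, no test was read from them. The share of all genes with a lower mean at 28D than at 14D was not counted. Over all tested mRNA genes the median log2 difference from 1D was also lower at 28D (-0.38) than at 14D (-0.31). In 5 genes (CLGN, ERBB3, GFRA1, MYO15A and PTX3) all 6 later libraries were above 0, so "switched off" describes a low level in these genes and not an absent transcript. No sample before hatching was measured, so when the genes first came on is unknown.

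**Figure D2:**
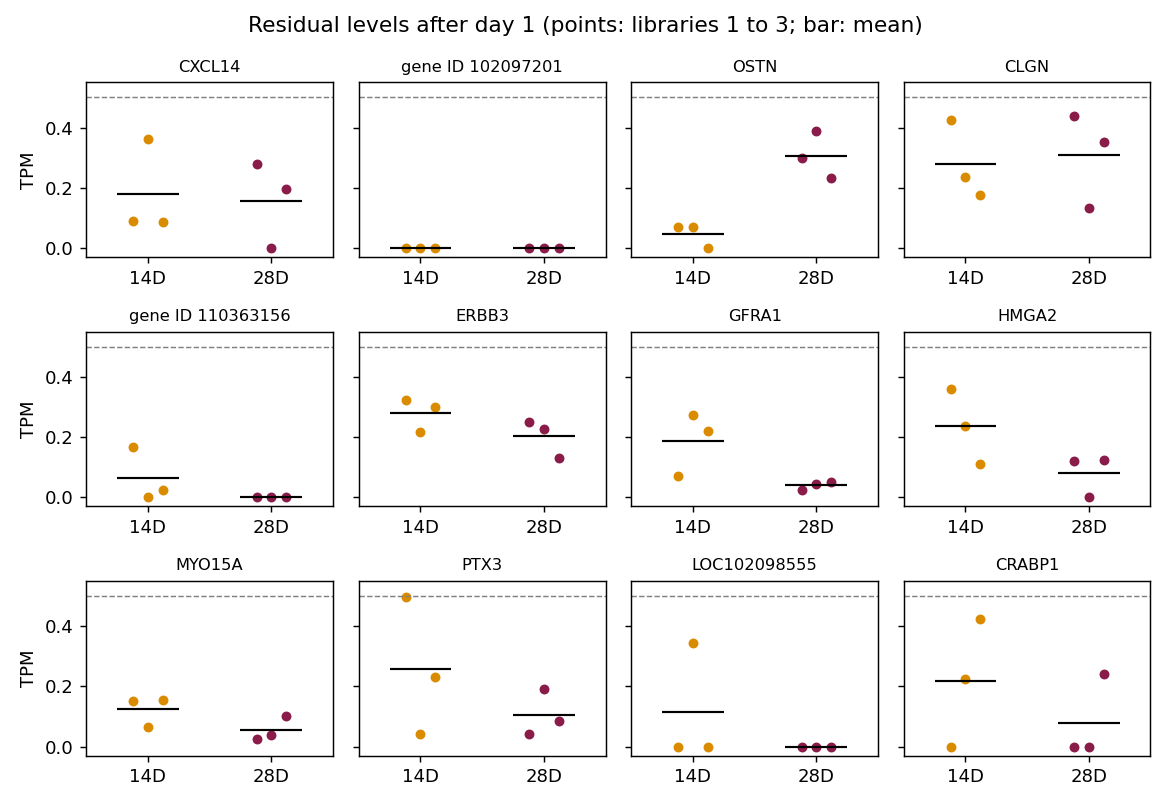
TPM of each of the 12 genes in the 14D and 28D libraries on a linear axis; points are libraries and bars are the means of 3, with the 0.5 TPM threshold dashed. OSTN was higher in every 28D library (0.231 to 0.389 TPM) than in any 14D library, while GFRA1 was lower in every 28D library (0.0237 to 0.0498 TPM). Neither difference was tested, and the share of all genes separated in this way was not counted.

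The spread between the 1D libraries was uneven among the 12 genes. The ratio of the highest to the lowest 1D library had a median of 1.55 over the 12 genes, from 1.11 in CRABP1 to 3.19 in CLGN, and a median of 1.24 over the 8802 genes of at least 5 TPM at 1D. The ratio exceeded 2 in 3 genes, CLGN, ERBB3 and PTX3, and each of these was highest in 1D library 2. Library 2 was the highest 1D library in 7 of the 12 genes, and in 35.8% of the 8802. Scarcer genes vary more between libraries at a given depth, and the part of abundance in this spread was not tested.

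The thresholds cut through a graded series. Just inside them lay PTX3 (lowest 1D value 5.6 TPM, highest later value 0.496 TPM), CRABP1 (5.74 and 0.423 TPM) and CLGN (6.29 and 0.437 TPM). Just outside the 1D threshold lay IGDCC3, with a lowest 1D value of 4.47 TPM, LUZP2 with 4.18 TPM and ISLR2 with 3.98 TPM. Just outside the later threshold lay MYOM3, an M-band protein of slow and embryonic fibres in mammals, which had a mean of 69.7 TPM at 1D and 0.359 TPM at 14D and missed the rule with a highest later value of 0.504 TPM. THBS4, a matrix glycoprotein of tendon and muscle, missed it with 0.51 TPM and RSPO4, an enhancer of WNT signalling, with 0.575 TPM. MYOM3 and THBS4 were more abundant at 1D than any of the 12.

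For the genes around these 12, tests were run across the whole tables with limma on log2(TPM + 1) (adjusted p by Benjamini-Hochberg, called below 0.05). Between 14D and 1D, 52.8% of 11951 tested mRNA genes were called, 39.2% lower and 13.6% higher at 14D. Between 28D and 1D 60.3% were called, 43.9% lower and 16.4% higher. These comparisons share the 1D libraries. All 12 genes passed the filter on low values through their 1D libraries, and their log2 differences ran from -5.01 to -2.54 at 14D and from -5.03 to -2.71 at 28D, as the rule required, so nothing is read from them. Other genes below 1 TPM in every later library also entered the tests only through 1D and could not come out higher. Among the genes named below these include CDH19, STRA6, PTX4 and SLC66A1L, and no test is read from their p-values. The counts below, and the shares of all genes, include such genes. The median log2 difference of all tested genes was -0.31 at 14D and -0.38 at 28D. After each library was rescaled by its median ratio, which centres the genes by construction, 2925 genes were higher and 3101 lower at 14D, against 1623 and 4688 as deposited. At 28D the counts were 3405 and 3537, against 1960 and 5249. After the same rescaling CRABP1 and PTX3 no longer met the thresholds and the other 10 genes did.

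Of 22 lists of pathway genes and cell type markers, only the list of oncofetal growth regulators (HMGA2) and that of nerve and Schwann cell markers (ERBB3) held any of the 12 genes. For the families of the others, 8 short lists of ligands, receptors, enzymes and relatives were written after the 12 genes were known. The 22 lists were also chosen with earlier results of these data known. Counts below leave out the 12 genes themselves and stand beside the shares of all genes given above.

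Most nerve and Schwann cell markers were lower after 1D. Of the 8 measured markers other than ERBB3, 6 were called lower than at 1D in the 14D libraries and none higher, and 7 lower and none higher at 28D, with median log2 differences of -1.01 and -1.25 (5 and 6 lower after rescaling). PMP22, a myelin protein, fell from 290 ± 57.4 TPM at 1D to 92.7 ± 19.8 TPM at 14D and 70.5 ± 3.9 TPM at 28D (SD, n = 3 per stage, as in all values with ± here; adjusted p = 6.38e-05 and 1.09e-05). MBP, another myelin protein, fell from 43.5 ± 3.89 to 23.5 ± 3.24 and 27.5 ± 5.44 TPM (adjusted p = 0.00211 and 0.00802, the latter 0.223 after rescaling). SOX10, the transcription factor of Schwann cells, and CDH19, a cadherin of their precursors, both named after their values were seen, fell at 14D, SOX10 from 3.48 ± 0.489 to 0.712 ± 0.135 TPM and CDH19 from 2.9 ± 0.553 to 0.663 ± 0.0217 TPM (adjusted p = 0.000165 and 0.000518). CDH19 passed the filter on low values only through its 1D libraries, so it could not come out higher. The summed level of the 8 markers was 370 to 508 TPM at 1D, 150 to 198 TPM at 14D and 137 to 141 TPM at 28D, so that 38.5% and 31.9% were left, and PMP22 made up the larger part of this sum. FOXD3 was the listed marker with no value, and none of the 8 was at 0 in any library. The part of Schwann cell content in the levels of ERBB3 and GFRA1 was not tested.

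The other ErbB receptors stayed above 1 TPM on average at every stage. ERBB2, the partner of ERBB3, fell from 12.5 ± 1.55 TPM at 1D to 6.66 ± 2.04 TPM at 14D and 5.29 ± 0.237 TPM at 28D (adjusted p = 0.00475 and 0.000794, the former 0.0757 after rescaling). EGFR, the receptor of epidermal growth factor, fell from 12.5 ± 0.719 to 4.55 ± 1.03 and 3.52 ± 0.924 TPM (adjusted p = 0.000348 and 6.47e-05). ERBB4, the neuregulin receptor with its own kinase, had 2.55 ± 1.13, 3.33 ± 0.735 and 1.85 ± 1.04 TPM and passed in neither comparison (adjusted p = 0.385 and 0.338). NRG1, the neuregulin that ERBB3 binds, named after its values were seen, fell from 4.01 ± 0.317 to 1.61 ± 0.126 and 1.08 ± 0.193 TPM (adjusted p = 0.000613 and 6.22e-05). Of the 6 tested genes of this list other than ERBB3, 4 were lower and 0 higher at 14D and at 28D (2 lower at 14D and, with 1 higher, 3 lower at 28D after rescaling).

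The co-receptors related to GFRA1 and the kinase RET were called lower or not called. Of the GFRA1 list only SDC3, which binds GDNF, was called higher in the deposited values. GFRA3, the co-receptor for artemin, fell from 13.6 ± 5.2 TPM at 1D to 6.87 ± 2.35 TPM at 14D and 7.16 ± 0.681 TPM at 28D (adjusted p = 0.0341 and 0.0484), calls that were lost after rescaling (adjusted p = 0.127 and 0.25). The 14D call was also lost without 1D library 1 or 2 or 14D library 1 or 3 (adjusted p = 0.0512 to 0.13), and the 28D call without 1D library 1 or 2, 14D library 1 or any 28D library (adjusted p = 0.0553 to 0.174), with a pseudocount of 0.1 (0.0533) or with no filter on low values (0.0512). GFRA2, the co-receptor for neurturin, had 6.03 ± 2.26 and 6.48 ± 2.67 TPM at 1D and 14D (adjusted p = 0.871) and fell to 2.55 ± 0.661 TPM at 28D (adjusted p = 0.0207, or 0.0892 after rescaling, 0.0858 without 1D library 2 and 0.0737 without 28D library 1). RET, the signalling kinase shared by these receptors, fell from 2.66 ± 0.354 to 0.87 ± 0.148 and 0.658 ± 0.139 TPM (adjusted p = 0.000696 and 0.00018). GDNF itself, the ligand, had 1.31 ± 0.475, 2.45 ± 1.27 and 2.98 ± 1.06 TPM, without a call (adjusted p = 0.188 and 0.0571). It was called higher at 28D after rescaling (adjusted p = 0.019) and without 14D library 1 or 2 or 28D library 1 (0.0219 to 0.0456), and at 14D without 14D library 1 (0.0279). RET and GDNF were named after their values were seen. SDC3, a heparan sulphate proteoglycan that binds GDNF, rose from 15.3 ± 2.6 to 41.4 ± 15.5 and 70.2 ± 15.2 TPM (adjusted p = 0.00239 and 9.16e-05). Of 6 tested genes other than GFRA1, 2 were lower and 1 higher at 14D, and 3 lower and 1 higher at 28D (1 and 1, and 1 and 2, after rescaling).

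**Figure D3:**
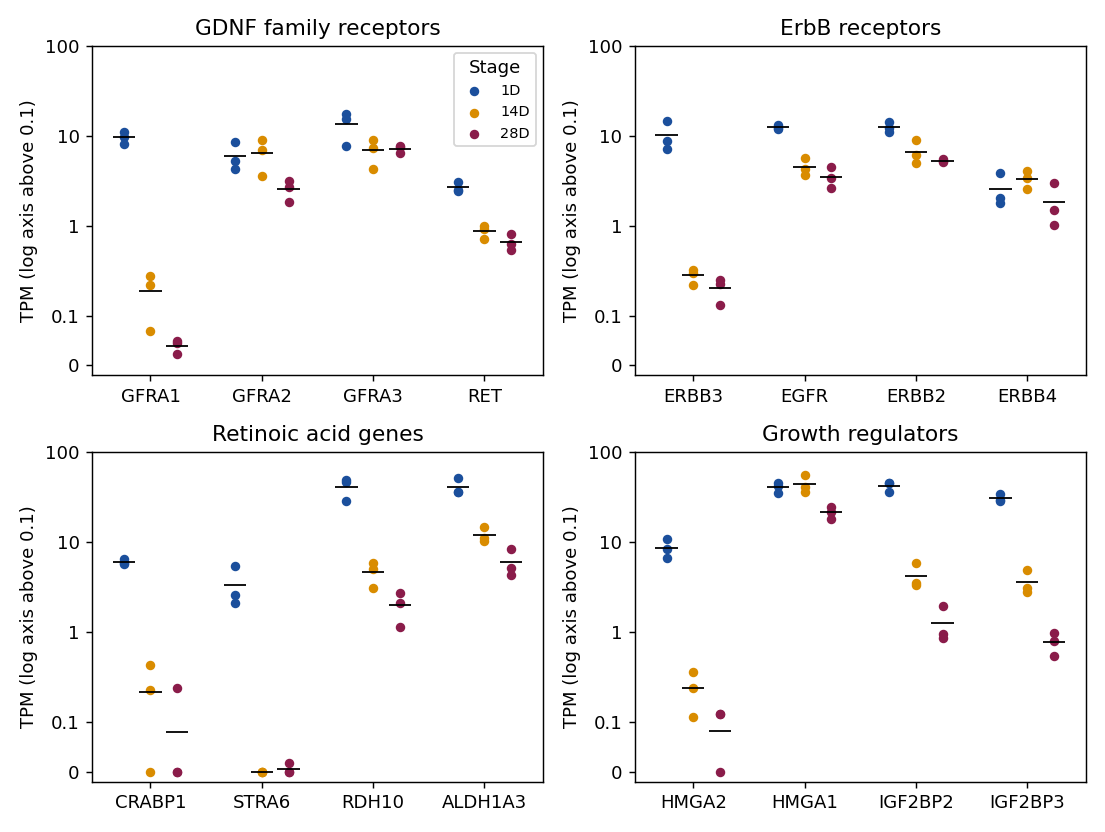
TPM per library (log axis above 0.1 TPM, linear below) of GFRA1, ERBB3, CRABP1 and HMGA2, each at the left of its panel, and of related genes; points are libraries, bars are means of 3. GFRA2, GFRA3, EGFR, ERBB2 and ERBB4 stay above 1 TPM in every library, and STRA6 drops to 0 or near 0 as CRABP1 does.

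In the retinoic acid list the share of genes called lower was near that of all genes. Of 12 tested genes other than CRABP1, 6 were lower and 0 higher at 14D, and 6 lower and 1 higher at 28D (4 and 2, and 3 and 2, after rescaling). RDH10, a retinol dehydrogenase, fell from 41.2 ± 10.8 TPM at 1D to 4.64 ± 1.4 TPM at 14D and 1.98 ± 0.797 TPM at 28D (adjusted p = 2.5e-05 and 2.78e-06). ALDH1A3, which makes retinoic acid from retinal, fell from 41.2 ± 8.5 to 12.1 ± 2.41 and 5.96 ± 2.17 TPM (adjusted p = 0.000244 and 9.76e-06). STRA6, the membrane receptor for retinol uptake, named after its values were seen, had 5.36, 2.1 and 2.59 TPM in the 1D libraries, was listed at 0 in all 14D libraries and had 0, 0.0178 and 0 TPM at 28D (adjusted p = 8.71e-05 and 5.91e-05). It passed the filter on low values only through its 1D libraries, so it could not come out higher and no test is read from these p-values. STRA6 resembled the 12 genes but stayed below 5 TPM in 2 of the 1D libraries. RARA, a retinoic acid receptor, fell from 66.8 ± 2.41 to 35.9 ± 5.27 and 36.1 ± 9.72 TPM (adjusted p = 0.00281 and 0.00204, or 0.0519 and 0.063 after rescaling). RBP7, a retinol-binding protein of the cytosol, had 96.9 ± 69.2, 97.9 ± 80.3 and 57.6 ± 57.9 TPM and passed in neither comparison (adjusted p = 0.906 and 0.327).

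Other growth regulators of the embryo were also lower after 1D. Of 15 other measured members of that list 9 were lower and 0 higher at 14D, and 12 lower and 0 higher at 28D, with median log2 differences of -0.59 and -0.89 (6 lower and 1 higher, and 8 lower and 1 higher, after rescaling). The RNA-binding protein IGF2BP2 fell from 42.1 ± 5.33 TPM at 1D to 4.23 ± 1.35 and 1.25 ± 0.597 TPM (adjusted p = 7.4e-06 and 5.82e-07), and IGF2BP3 from 30.8 ± 3 to 3.55 ± 1.11 and 0.771 ± 0.215 TPM (adjusted p = 4.96e-06 and 2.6e-07). HMGA1, the other gene of the HMGA family, had 40.7 ± 5.18 and 44.1 ± 10.2 TPM at 1D and 14D (adjusted p = 0.691) and fell to 21.5 ± 3.3 TPM at 28D (adjusted p = 0.0023, or 0.0736 after rescaling). IGF2, an insulin-like growth factor, had 35.6 ± 0.985 and 30.5 ± 3.86 TPM at 1D and 14D (adjusted p = 0.184) and fell to 24.2 ± 1.32 TPM at 28D (adjusted p = 0.00556, or 0.451 after rescaling). HMGA2 was thus scarcer than HMGA1 at every stage, by mean TPM.

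The partners of the secreted proteins moved in both directions. For OSTN, NPR2, the receptor for C-type natriuretic peptide, fell from 53.1 ± 11.5 TPM at 1D to 15.1 ± 1.09 and 14 ± 1.91 TPM (adjusted p = 3.54e-05 and 1.46e-05), while NPR1, the receptor for the atrial peptide, rose from 19.6 ± 1.08 to 31.9 ± 7.11 and 37.5 ± 4.46 TPM (adjusted p = 0.0101 and 0.00139). PRKG1, the kinase activated by cyclic GMP, fell from 50.4 ± 18.1 to 19.2 ± 8.17 and 9.38 ± 1.75 TPM (adjusted p = 0.00418 and 0.000144). Thus 2 of 3 tested genes of this list were lower and 1 higher at both ages, also after rescaling. NPR3, the receptor that binds the OSTN peptide, was below the filter, with 0.61 ± 0.413, 0.189 ± 0.138 and 0.674 ± 0.629 TPM.

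For PTX3, 3 of 4 tested relatives and partners were lower and 1 higher at both ages, also after rescaling. TNFAIP6, which builds hyaluronan matrix with PTX3, fell from 21.7 ± 3.33 TPM to 5.88 ± 1.07 and 4.23 ± 1.16 TPM (adjusted p = 9.41e-05 and 1.59e-05). PTX4, another long pentraxin, fell from 3.79 ± 0.225 to 0.31 ± 0.119 and 0.551 ± 0.139 TPM (adjusted p = 1.41e-05 and 1.59e-05), and NPTXR, a neuronal pentraxin receptor, from 7.44 ± 3.29 to 1.8 ± 0.578 and 1.14 ± 0.364 TPM (adjusted p = 0.00146 and 0.000276). PTX4 passed the filter on low values only through its 1D libraries, so it could not come out higher. NPTX2, a neuronal pentraxin, rose from 6.18 ± 1.18 to 23 ± 10.8 and 34.3 ± 16.9 TPM (adjusted p = 0.00623 and 0.000816). For CXCL14, only CXCL12 and the receptor CXCR4 of its list were tested and neither passed. CXCL12 had 79.8 ± 8.57, 98.6 ± 21.3 and 55.1 ± 18 TPM (adjusted p = 0.324 and 0.0542). It was called higher at 14D after rescaling (adjusted p = 0.0336), and lower at 28D without 14D library 1 or 3 or 28D library 1 (adjusted p = 0.0076 to 0.0473). CXCR4 had 12.8 ± 3.04, 10.9 ± 6.26 and 9.95 ± 3.41 TPM (adjusted p = 0.476 and 0.441).

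Summed markers of fibroblasts and, at low levels, of skin, where CXCL14 is known to be expressed in mammals, were also highest at 1D. Of 9 measured fibroblast markers (10 listed) 8 were lower and 0 higher at both ages. Their summed level was 6830 to 8584 TPM at 1D, 1913 to 2076 TPM at 14D and 923 to 1006 TPM at 28D, which left 26.3% and 12.7%, and none was at 0. Of 10 skin and feather epithelium markers 3 were measured (EPCAM, TP63 and EDAR), with a summed level of 2.35 to 4.95 TPM at 1D, 0.22 to 0.587 TPM at 14D and 0.4 to 0.643 TPM at 28D. EPCAM was at 0 in 14D library 3 and EDAR in 28D libraries 1 and 2. Only 1 of the 3 passed the filter and was tested, and it was lower at both ages. Chondrocyte and tendon cell markers (6 of 11 measured) summed to 46.2 to 65.4 TPM at 1D, 26.7 to 46 TPM at 14D and 40.3 to 46.8 TPM at 28D. Their 1D and 28D sums overlapped, and 4 of the 6 were lower and 0 higher at both ages (4 lower and 1 higher at 28D after rescaling). Smooth muscle and pericyte markers (8 of 10 measured) summed to 2124 to 2294 TPM at 1D. Their later sums were 1278 to 1464 TPM (14D) and 1096 to 1352 TPM (28D). Of the 8, 3 were lower and 3 higher at 14D, and 3 lower and 2 higher at 28D. After rescaling 1 was lower and 3 higher at 14D, and 2 lower and 3 higher at 28D. Red blood cell markers (4 of 10 measured) also had their highest sum at 1D, 267 to 524 TPM. The later sums were 36.4 to 61.9 TPM (14D) and 45.5 to 52.4 TPM (28D). Only 2 of the 4 were called lower and 0 higher at both ages (1 lower at 28D after rescaling), and 2 were not called. HBAD, on this list and left out of the rule by name, fell from a 1D mean of 312 TPM to later means of 0.732 and 0.224 TPM. It had at least 247 TPM in every 1D library and so made up most of the 1D sum, but almost none of the later sums. The higher sum at 1D is therefore not read as a fall of all 4 red blood cell markers. Macrophage and monocyte markers (7 of 10 measured) went the other way, with a sum of 101 to 183 TPM at 1D, 449 to 854 TPM at 14D and 503 to 799 TPM at 28D. Of the 7, 4 rose at both ages (5 at 14D and 6 at 28D after rescaling). Endothelial markers (10 of 12 measured) summed to 437 to 533 TPM at 1D, 586 to 1192 TPM at 14D and 890 to 912 TPM at 28D. Of the 10, 7 rose at both ages (8 at 14D and 10 at 28D after rescaling). The part of any of these cell types in the levels of CXCL14 and PTX3 was not tested.

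**Figure D4:**
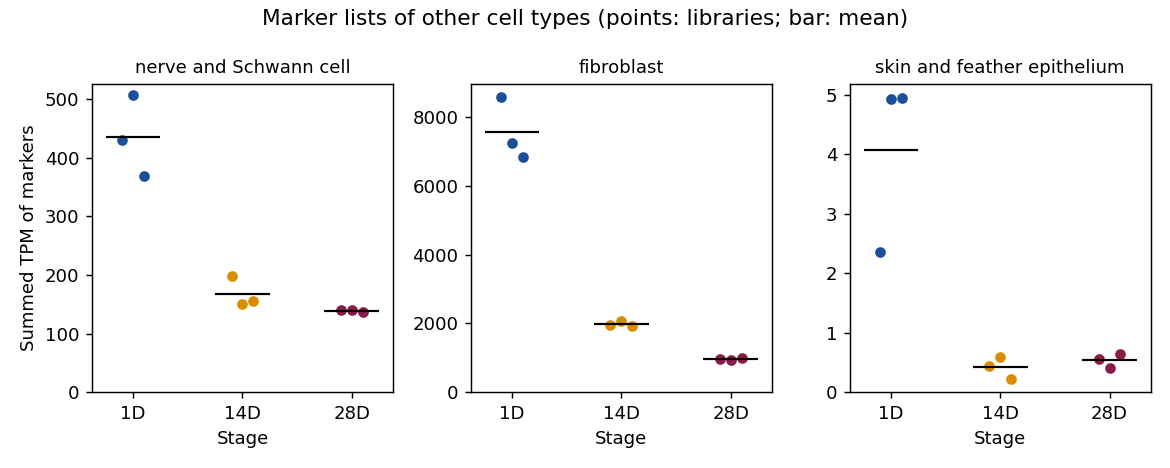
Summed TPM of the measured markers of nerve and Schwann cells (8, without ERBB3), fibroblasts (9) and skin and feather epithelium (3) in each library; points are libraries and bars the means of 3. In each panel all 1D libraries lie above all 14D and 28D libraries, and the epithelial sum stays below 5 TPM.

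The relatives of CLGN were abundant at every age. Of 6 other tested chaperones and folding enzymes 5 were lower and 0 higher at both ages, also after rescaling. PDIA3, which works with calnexin, fell from 415 ± 20.8 to 166 ± 33.6 and 167 ± 28.8 TPM (adjusted p = 0.000151 and 0.000115), and P4HB, a disulphide isomerase, from 345 ± 41.9 to 117 ± 12.6 and 118 ± 3.56 TPM (adjusted p = 1.64e-05 and 9.04e-06). CANX, calnexin, fell from 178 ± 8.11 to 95.3 ± 9.84 and 78 ± 18 TPM (adjusted p = 0.00194 and 0.00023). HSPA5, the main chaperone of the compartment, had 254 ± 48.7, 175 ± 74.4 and 210 ± 43.1 TPM, without a call (adjusted p = 0.0898 and 0.395), but was called lower at 14D without 14D library 1 (adjusted p = 0.00609). CANX was therefore more abundant than CLGN in every stage mean.

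Most relatives of MYO15A did not pass the test on the deposited values. Of 19 tested unconventional myosins and partners 4 were lower and 0 higher at 14D, and 6 lower and 0 higher at 28D (3 and 3, and 5 and 6, after rescaling). Their median log2 differences were -0.09 and 0.003. After rescaling 8 of the 19 did not pass at 28D, and none of those called higher is named here. MYO10, a myosin of filopodia, fell from 49.2 ± 12.8 TPM to 15.4 ± 4.03 and 14.2 ± 1.98 TPM (adjusted p = 0.000199 and 9.77e-05). GPSM2, which in mice acts with MYO15A at the tips of stereocilia, named after its values were seen, fell from 36.2 ± 0.397 to 12.5 ± 2.36 and 9.82 ± 1.09 TPM (adjusted p = 5.18e-05 and 9.87e-06). MYO18B, a muscle myosin, had 83 ± 15.3 and 58 ± 5.69 TPM (adjusted p = 0.0624, or 0.0212 without 28D library 2) and fell to 42.3 ± 10.4 TPM at 28D (adjusted p = 0.00212).

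The genome neighbourhood gives a readout that the rule did not use. According to RefSeq genes of bColLiv1.pat.W.v2, 9 of the 12 genes had a chromosome, each with a protein-coding neighbour on both sides, and 13 of these 18 neighbours were measured. Of 12 tested, 7 fell and 1 rose by 14D, and 8 fell and 1 rose by 28D. Of all tested genes 39.2% were lower and 13.6% higher at 14D, and 43.9% and 16.4% at 28D. The neighbours were not counted after rescaling, so the part of the fall across all genes in these counts was not tested. The neighbours named here were picked after their values were seen. The neighbours of MYO15A moved apart. DRG2, a GTP-binding protein, fell from 148 ± 8.11 TPM at 1D to 48.2 ± 2.02 TPM at 14D (adjusted p = 1.55e-05). ALKBH5, an RNA demethylase, rose from 25.6 ± 2.27 to 37.9 ± 4.61 TPM (adjusted p = 0.0285, or 0.00286 after rescaling). The 14D call of ALKBH5 was lost without 1D library 1, 2 or 3 and without 14D library 2 (adjusted p = 0.0513 to 0.099). At 28D DRG2 had 45 ± 7.05 TPM and ALKBH5 44.8 ± 11 TPM (adjusted p = 5.52e-06 and 0.00468), calls that held in every setting. SKIC8, next to CRABP1, fell from 82.7 ± 5.89 to 29.9 ± 3 TPM (adjusted p = 1.97e-05) and SLC66A1L, next to PTX3, from 2.42 ± 0.303 to 0.399 ± 0.0115 TPM (adjusted p = 9.62e-05). SLC66A1L passed the filter on low values only through its 1D libraries, so it could not come out higher. LOC102095284, next to LOC102098555, fell from 3.35 ± 1.76 to 0.371 ± 0.642 TPM (adjusted p = 0.00177) and was listed at 0 in all 28D libraries. UTS2B, next to OSTN and below the filter, had 0.686 ± 0.16 TPM at 1D, 0 in all 14D libraries and 0.0379 ± 0.0656 TPM at 28D. So no measured neighbour had more than 5 TPM at 1D and less than 0.5 TPM after it.

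Long noncoding RNAs (lncRNAs), deposited in a second table of 9158 entries, were tested on log2(TPM + 0.1). Between 14D and 1D 22.9% of 8685 tested entries were called, 17.8% lower and 5.1% higher, and between 28D and 1D 30.0%, 22.5% lower and 7.44% higher (443 higher and 1545 lower as deposited, and 672 and 1088 after rescaling, at 14D; 646 and 1956, and 955 and 1416, at 28D). After quantile normalization the directions were nearly even, with 865 higher and 858 lower at 14D and 1170 and 1175 at 28D. Only 1604 of the entries could be placed through the gene table, and 4 of these lay within 50 kb of one of the 12 genes, none overlapping it. The lncRNA LOC110359614, near CXCL14, had 5.63, 5.83 and 8.68 TPM at 1D, then 0, 0 and 0.244 TPM at 14D, and 0 in all 28D libraries. Like CXCL14 it was far higher in all 1D libraries than in any other (log2 difference -5.47 ± 0.53 SE at 14D, adjusted p = 0.000473, and -6.06 ± 0.53 SE at 28D, adjusted p = 0.000237), and its own level met the 5 and 0.5 TPM thresholds. The later values were at or near 0, so the size of this difference rests on the pseudocount. With a pseudocount of 1 it was -2.82 at 14D and -2.93 at 28D, where CXCL14 had -5.01 and -5.03. Outside 1D this lncRNA reached 0.1 TPM only in 14D library 3, so it could hardly come out higher. Within 1D the orders differed, since library 3 was the lowest for CXCL14 and the highest for the lncRNA. SLC25A48, the measured protein-coding neighbour of CXCL14, had 2.79 ± 0.812, 2.6 ± 2.33 and 3.03 ± 0.916 TPM and passed in neither comparison (adjusted p = 0.596 and 0.881). The lncRNA LOC110356966, near CLGN, went the other way, from 0.179, 0.38 and 0 TPM at 1D to 1.2, 0.679 and 0.972 TPM at 14D and 1.39, 0.688 and 2.11 TPM at 28D (adjusted p = 0.0403 and 0.0157). Its call at 14D was lost with a pseudocount of 1 (log2 difference 0.72, against 2.11; adjusted p = 0.0651) and without any one of 1D libraries 1 and 3, 14D libraries 1, 2 and 3 and 28D library 1 (adjusted p = 0.0564 to 0.114), and its call at 28D without 28D library 3 (adjusted p = 0.0509). LOC110355263, near OSTN, had 0.476 ± 0.26, 0.295 ± 0.169 and 0.243 ± 0.135 TPM (adjusted p = 0.475 and 0.317), and LOC110366012, near LOC102098555, had 0.0855 ± 0.063, 0.148 ± 0.0858 and 0.252 ± 0.0788 TPM (adjusted p = 0.493 and 0.114). Neither passed, but LOC110366012 was called higher at 28D after quantile normalization (log2 difference 1.58, against 0.95; adjusted p = 0.016). The mRNA and lncRNA values of a library are shares of 1 total.

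**Figure D5:**
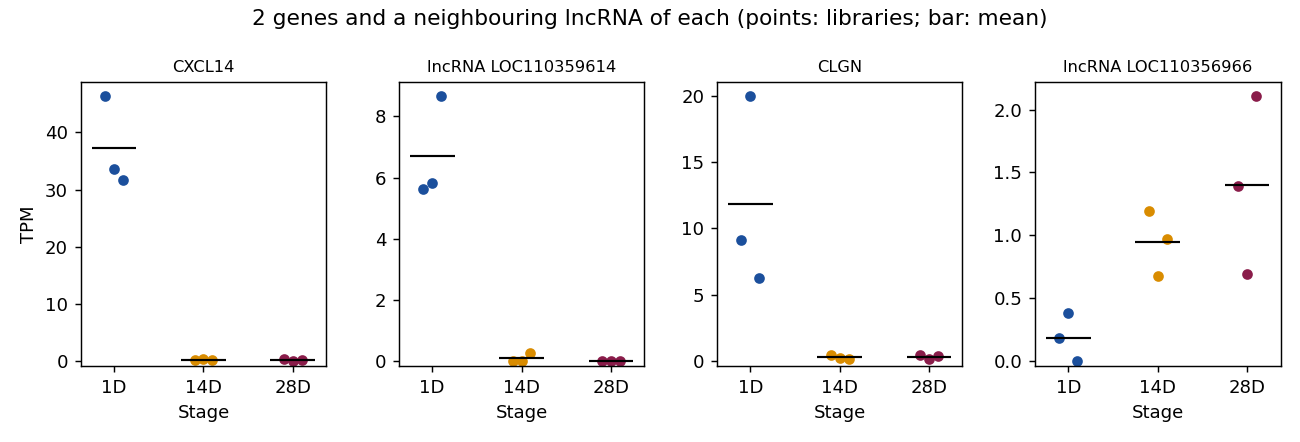
TPM per library (linear axes, each with its own scale) of CXCL14 and CLGN and of the lncRNA near each; points are libraries and bars the means of 3. LOC110359614 is at 0 in 5 of 6 later libraries, as CXCL14 falls, and LOC110356966 is above its 1D values in every later library.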

How the data were processed

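Total RNA of breast muscle was sequenced, with 3 libraries at each of 4 ages, per the labels. STAR 2.6.0c and Cufflinks 2.1.1 are named in the submitters' processing notes, and the role of each, the genome build, the annotation and the strand setting are not given in the sources used here. Values are TPM that the authors deposited in 2 tables, of 12918 mRNA genes and 9158 lncRNA entries, which together sum to 991186 to 993735 TPM per library, so the values are shares. The mRNA genes made up 835976 to 844829 TPM at 1D, 737968 to 787201 TPM at 14D and 761954 to 790319 TPM at 28D. The part of this shift in the counts of lower mRNA genes was not tested. Each table has 12 value columns, of which 3 match no label and were not used, and the planned comparison with 2 years was therefore not run. The genes and lists were chosen with earlier results of these data known.

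Identifiers were matched by gene ID to the RefSeq table of bColLiv1.pat.W.v2 (12256 of 12918 mRNA genes), whose coordinates are not given because the authors' build is unknown. limma 3.58.1 in R 4.3.3 (eBayes with trend, 1 mean per stage, two-sided) was run on log2(TPM + 1) for genes reaching 1 TPM in 3 or more of the 9 libraries; lncRNAs used log2(TPM + 0.1) and a floor of 0.1 TPM in 3 libraries. A call is an adjusted p below 0.05. The fit was checked on simulated data with 200 planted differences per table. Of 100 with a log2 size of 1 and 100 with 2 it found 4 and 29 among lncRNAs, and 64 and 97 among mRNA genes. Far fewer differences were planted than were called in the data, so these shares do not carry over to it. A lncRNA without a call may still differ. The text names all 12 genes, the 3 nearest each threshold on either side, the 4 measured genes of each list with the highest 1D mean, paralogs of the 12 in the lists and lncRNAs within 50 kb, with exceptions stated; some genes under this rule are not reported here. Motifs and sequences were not analysed here.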

Additional observations from a re-analysis of the deposited data

How the results depend on the processing

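The number of genes meeting the rule depended on its thresholds: 26 with a 1D minimum of 2.5 TPM, 3 with 10 TPM, 3 with a later maximum of 0.25 TPM and 25 with 1 TPM, against 12. Without any one library it was 12 to 14, and after median-ratio rescaling 10. The count of called lncRNAs fell by more than 1.5 times when a 1D library was left out, with fewer samples in the fit: over all left-out libraries it ran from 966 to 2109 at 14D (1988 with all) and from 1577 to 2600 at 28D (2602). For mRNA genes the ranges were 5081 to 6525 (6311) and 6082 to 7384 (7209). With the replicate number as a block, 6047 and 7018 mRNA genes and 1639 and 2291 lncRNAs were called. No pairing by number was seen in the mRNA values. The deviations of same-numbered libraries had correlations of -0.0719 to 0.0466, against -0.0783 to 0.0919 for libraries of different number. Whether libraries are paired is not stated in the labels. Under the block the call of LOC110356966 at 14D was lost (adjusted p = 0.077) and CXCL12 and GDNF were called at 28D (adjusted p = 0.0142 and 0.016).

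Of 96 gene comparisons, the following changed sign, without a call in the fit to all libraries. After rescaling the log2 difference was 0.027 for CXCR4 and 0.14 for HSPA5 at 28D, and 0.13 for IGF2 and 0.23 for RBP7 at 14D. After quantile normalization it was 0.042 for CXCR4 and 0.051 for ERBB4 at 28D, and 0.12 for IGF2, 0.21 for RBP7 and 0.081 for LOC110355263 at 14D. With each library left out in turn, 14D differences ran from -0.73 to 0.11 for CXCR4, -0.17 to 0.38 for GFRA2, -0.079 to 0.23 for HMGA1 -0.78 to 0.60 for RBP7 and -0.79 to 0.28 for SLC25A48, and the 28D difference of SLC25A48 ran from -0.092 to 0.24. The cause was not tested. Some genes, CDH19 among them, no longer passed the filter on low values without a 1D library, so their calls were not checked in that way. The planned settings for 2-year libraries and the motif search were not run. Depth is unknown, so values below 0.5 TPM carry an unknown counting error.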
